A study of Mus musculus with 6 samples.

Results

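The sarcomere scaffold and M-band genes described here are 9 genes chosen by symbol: Ttn, Nebl, Myom1, Myom2, Myom3, Mybpc3, Ldb3, Tcap and Myot. All 9 were found among the 22298 genes of the expression table, and all 9 had enough counts to be tested. Poly(A)-selected RNA came from the hearts of wild-type (WT) females aged 18 months: 3 libraries from sham-operated and 3 from TAC-operated mice. TAC usually stands for transverse aortic constriction, which narrows the aorta and loads the left ventricle with pressure. No other agent or allele is named in the labels. Neither the strain, the part of the heart taken and the time after surgery, nor whether each library is a separate animal, was given in the sources used here, so p-values measure the spread between these libraries only. The question asked of the 9 genes was whether their RNA differed between TAC and sham hearts.

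The sarcomere is the contractile unit of heart muscle, bounded by Z-discs, where actin filaments are anchored, and held at its middle by the M-band, where myosin filaments are cross-linked. Titin (Ttn) runs from the Z-disc to the M-band as a molecular spring and template, nebulette (Nebl) lies along the actin filament next to the Z-disc, and cardiac myosin-binding protein C (Mybpc3) sits on the myosin filament and tunes cross-bridge cycling. Myomesins (Myom1, Myom2 and Myom3) tie titin and myosin together at the M-band. Telethonin (Tcap) caps the end of titin in the Z-disc, Ldb3 (also called ZASP or Cypher) binds alpha-actinin there, and myotilin (Myot) binds alpha-actinin, filamin C and actin.

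The sequences just upstream of the RefSeq start sites of 4 members follow (GRCm38.p6, 5′ to 3′ on the strand of the gene). Mybpc3, Ldb3 and Myom1, which varied together across the libraries, are shown beside Ttn, which did not vary with them. Myom3 also varied with the former (r = 0.95 with Ldb3) but is not shown, and its window held no match. The 4 windows shown were picked after the motif search, and each holds a match. The matches therefore say nothing about why genes varied together. Capitals mark a MEF2 core (CTA, any 4 bases, then TAG) or a CArG box, the sites that the muscle factors MEF2 and SRF are known to bind. Both strands were searched, and none of the marked matches overlaps another.
Ttn, chr2:76982548-76982797, minus strand: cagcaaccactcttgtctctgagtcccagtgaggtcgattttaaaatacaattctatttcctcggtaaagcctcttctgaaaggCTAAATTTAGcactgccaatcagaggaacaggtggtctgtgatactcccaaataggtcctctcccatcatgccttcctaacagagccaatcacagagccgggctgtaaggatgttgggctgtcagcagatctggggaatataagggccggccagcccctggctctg
Mybpc3, chr2:91117894-91118143, plus strand: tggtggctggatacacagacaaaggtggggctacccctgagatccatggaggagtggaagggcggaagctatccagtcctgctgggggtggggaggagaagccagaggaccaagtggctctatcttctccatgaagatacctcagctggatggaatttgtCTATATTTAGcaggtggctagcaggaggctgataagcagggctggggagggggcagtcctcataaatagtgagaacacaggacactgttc
Ldb3, chr14:34588683-34588931, minus strand: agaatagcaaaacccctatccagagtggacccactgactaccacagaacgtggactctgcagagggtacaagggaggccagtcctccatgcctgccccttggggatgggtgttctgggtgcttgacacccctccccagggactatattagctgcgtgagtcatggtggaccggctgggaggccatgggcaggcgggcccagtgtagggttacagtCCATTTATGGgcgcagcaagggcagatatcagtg
Myom1, chr17:71019307-71019520, plus strand: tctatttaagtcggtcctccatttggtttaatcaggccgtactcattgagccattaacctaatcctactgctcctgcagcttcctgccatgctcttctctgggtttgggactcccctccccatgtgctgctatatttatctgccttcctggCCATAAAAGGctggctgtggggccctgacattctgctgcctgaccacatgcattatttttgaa
The MEF2 core began 166 bases before the start of Ttn and 90 bases before that of Mybpc3, and the CArG box began 35 bases before the start of Ldb3 and 99 bases before that of Myom1. Of 32851 RefSeq promoter windows of 250 bases, 3.2% held a MEF2 core and 1.47% a CArG box. The MCAT element (CATTCC), searched in the same way and found in 12.6% of windows, was in none of the 4. Myom3 held none of the 3 motifs in its window, and of 3 windows of Nebl 1 held a CArG box and 1 an MCAT element. A downstream start of Ldb3 held a MEF2 core and the same CArG box. The window of Myom1 belongs to a start inside the annotated gene. The windows of Ldb3 and Myom1 stop before the first base that GENCODE M21 places in an exon. These are matches of letters in a window and say nothing of whether a factor was bound. The RefSeq table used holds windows for 6 of the 9 members, and none was matched for Myom2, Tcap and Myot.

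Total estimated counts ranged from 19747265 to 27549838 per library, and the 9 genes together took between 0.541% and 0.768% of them. On the first principal component of the log2 levels (54.6% of the variance), the sham libraries lay between -37.3 and -31.4. TAC replicate 1 lay at 0.653, apart from TAC replicates 2 and 3 at 48.9 and 53.5. Where a member's call changes without TAC replicate 1, that value is given beside it. The tissue label was checked against 10 cardiomyocyte markers, all of them tested, which summed to 63908 to 66037 CPM (counts per library size, after TMM scaling) in sham. In TAC replicates 1, 2 and 3 the same sum was 64961, 54951 and 43596 CPM, that is 100.5%, 85.0% and 67.4% of the sham mean. None of the 10 markers was called, and they did not move alike. For 7 the log2 fold change was negative, among them the 2 most abundant, Myh6 and Atp2a2. It was positive for 3 thin filament genes, Tnnt2 (0.17), Actc1 (0.10) and Tnnc1 (0.21). Relative to the sham mean these stood at 0.31, 0.17 and 0.31 on the log2 scale in TAC replicate 2. In TAC replicate 3 they stood at -0.13, -0.08 and -0.09. Tnni3, also a thin filament gene, was among the 7 with a negative value (-0.31). In bulk tissue such as this, fewer cells of a type and less RNA per cell cannot be told apart.

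None of the 9 genes passed the test between TAC and sham. With the threshold of 0.05 set on p-values that were Benjamini-Hochberg adjusted over 13708 tested genes (edgeR's quasi-likelihood fit), 0 of the 9 were called, where 1.66% of all tested genes were: 1.12% were higher in TAC, and in 0.54% TAC was the lower group. At an unadjusted p under 0.05 there were 2, Myot and Nebl, both higher in TAC, where 25.6% of all tested genes reached that level and 16.3% did so with a higher and 9.26% with a lower value in TAC. These 2 were also the members whose CPM did not overlap between the groups, and 31.5% of all tested genes had no overlap, 18.4% with TAC higher and 13.1% with TAC lower. A share of 2 in 9 is near these background shares. Of the 9 log2 fold changes 4 were positive and 5 negative, with a median of -0.07 beside 0.03 for all tested genes. DESeq2's Wald test, which called 11.3% of its genes, called 1 member, Myot, and limma-voom, which called 1.25%, called 0. Without TAC replicate 1, when 23.2% of genes were called, 2 members passed, Myot (higher) and Tcap (lower). No member passed when sham replicate 1, 2 or 3 was left out, where 0.115%, 0.115% and 0.086% of genes passed, or without TAC replicate 2 (0.261%) or TAC replicate 3 (0.964%). None passed with DESeq2's size factors (1.53% of genes), upper-quartile factors (1.6%), no count filter (1.06%), a minimum count of 100 (2% of genes), the replicate block (0.54%), log2 of FPKM plus 1 (1.09%) or plus 0.1 (1.04%), or without mitochondrially encoded genes (1.52%).

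**Figure D1:**
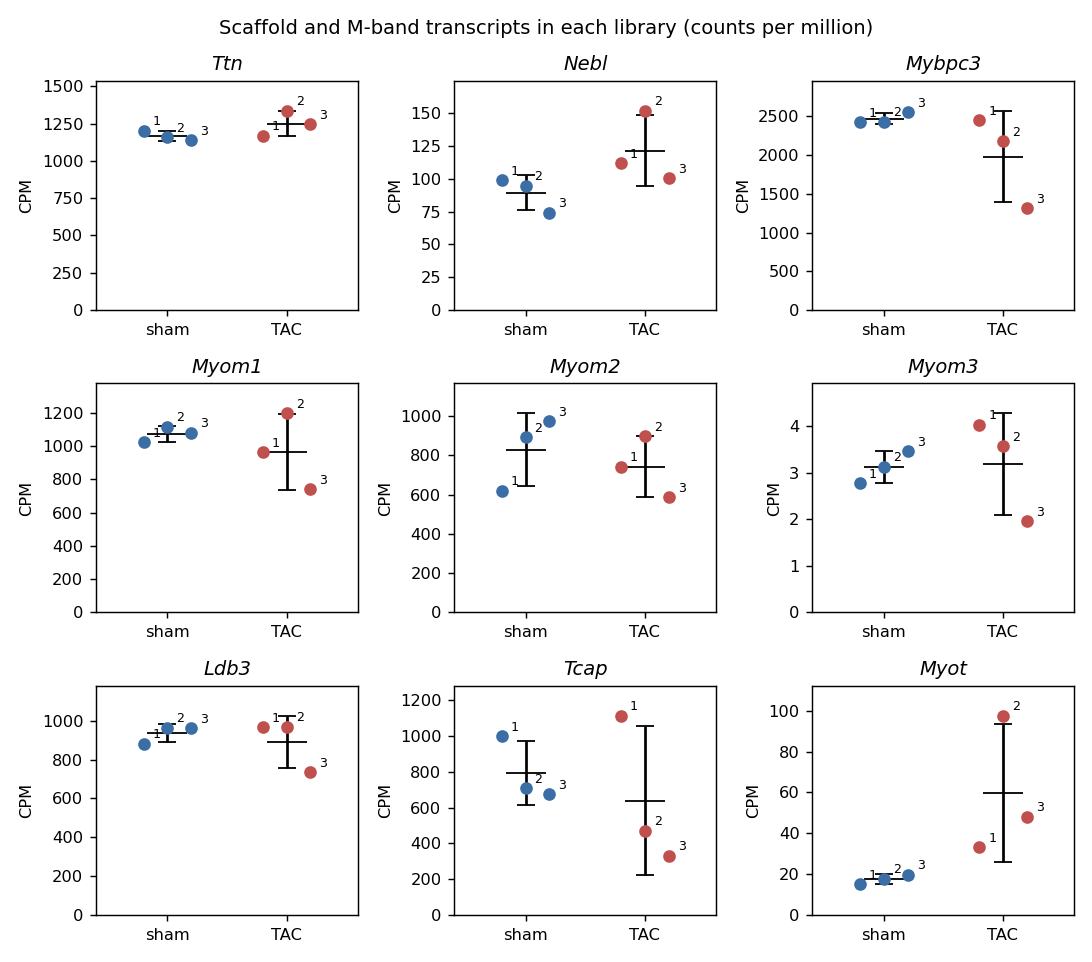
Level of each of the 9 transcripts in CPM (vertical axis from 0, a different scale in each panel) for the sham (blue) and TAC (red) libraries. Points are libraries with their replicate number, and bars are the mean and SD of 3. The 3 Myot points of TAC lie above all sham points, Tcap in TAC splits between replicate 1 and the other two, and Mybpc3 is lowest in TAC replicate 3.

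Per kilobase of transcript the 9 genes covered a wide range, on the scale of the deposited FPKM (fragments per kilobase of transcript, scaled to library depth). In sham the order of levels was Tcap at 837 ± 178 FPKM (SD, n = 3), Mybpc3 at 594 ± 31.0, Ldb3 at 420 ± 24.9, Myom1 at 201 ± 10.2 and Myom2 at 164 ± 39.3. Below these stood Ttn at 19.0 ± 0.601, Nebl at 16.1 ± 2.05, Myot at 8.08 ± 1.32 and Myom3 at 0.560 ± 0.0755 FPKM. Myom1 and Myom2 were the only neighbours of this order whose sham libraries overlapped. In TAC the means of the 5 most abundant genes kept that order, but the libraries of Tcap, Mybpc3 and Ldb3 overlapped, as did those of Myom1 and Myom2. Myot, at 27.6 ± 15.2 FPKM in TAC, stood above Nebl (22.6 ± 6.03) and Ttn (21.2 ± 2.23), again with libraries that overlapped.

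Ttn was among the steadiest of the members. The gene (ENSMUSG00000051747, GRCm38 chromosome 2, 76703980 to 76982547, minus strand) had 1203, 1161 and 1139 CPM in sham replicates 1, 2 and 3, and 1169.9, 1336 and 1246 CPM in TAC replicates 1, 2 and 3. TAC replicate 1 lay within the sham range and the other two above it. The log2 fold change was 0.10 (SE 0.13, 95% interval -0.20 to 0.40, edgeR adjusted p = 0.658), and 0.02 to 0.13 with 1 library left out. Reads of the antisense gene Gm13938, which overlaps Ttn on the other strand, cannot be told from those of Ttn, since the protocol does not state that strand was kept.

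Set against the cardiomyocyte marker sum, Ttn was not level. Ttn CPM equalled 1.88%, 1.76% and 1.78% of that sum in the sham libraries and 1.80%, 2.43% and 2.86% in TAC replicates 1, 2 and 3. For Mybpc3 the same shares were 3.79%, 3.68% and 3.99% in sham and 3.77%, 3.96% and 3.02% in TAC. The shares of Ttn thus stood above the sham range in TAC replicates 2 and 3, whereas that of Mybpc3 lay below its sham range in TAC replicate 3. Myom1 was at 1.6% to 1.69% in sham and at 1.49%, 2.18% and 1.697% in TAC replicates 1, 2 and 3. How far these shares follow the marker genes themselves, of which Myh6 (log2 fold change -0.47, SE 0.17, adjusted p = 0.138) and Atp2a2 (-0.50, SE 0.22, adjusted p = 0.2) are the most abundant, was not tested.

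Nebl was not called either, and its groups stood close together. The gene (ENSMUSG00000053702, chromosome 2, 17343909 to 17731464, minus strand) stood at 99.1, 94.7 and 74.2 CPM in sham replicates 1 to 3 and at 111.8, 151.8 and 100.4 CPM in TAC replicates 1 to 3. All TAC values lay above all sham values, the closest pair being TAC replicate 3 and sham replicate 1. The log2 fold change was 0.44 (SE 0.18, 95% interval 0.02 to 0.86, unadjusted p = 0.0416, edgeR adjusted p = 0.178). Omitting TAC replicate 2, its highest library, gave 0.22 (adjusted p = 0.446), and omitting TAC replicate 1 gave 0.49 (adjusted p = 0.132). On the FPKM scale the groups overlapped, with 18.19 FPKM in sham replicate 1 and 18.15 in TAC replicate 1. Nebl also encodes a shorter, more widely expressed LIM-nebulette from another start, and the counts per gene do not separate the forms.

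The deposited count and FPKM of a gene together give the transcript length that the FPKM assumed. For Mybpc3 and Tcap that length was constant over the libraries, at 4163 and 948 bases, and equal to the total exon length in the annotation. For Ttn it ranged from 56054 to 62527 bases, with an annotated exon total of 116825. It was 61561, 62527 and 60214 bases in sham replicates 1, 2 and 3 and 58464, 56054 and 62381 bases in TAC replicates 1, 2 and 3. For Nebl it ranged from 5079 to 5866 bases, and TAC replicates 2 and 3, at 5079 and 5267 bases, lay below all other libraries. For Ldb3 it was 2220 to 2243 bases in sham and 2116, 2259 and 2195 bases in TAC. The groups of Ttn and Nebl overlapped in this length. FPKM of these 3 genes therefore rest on lengths that differ between libraries, while CPM do not, and the cause of the varying length was not tested.

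**Figure D2:**
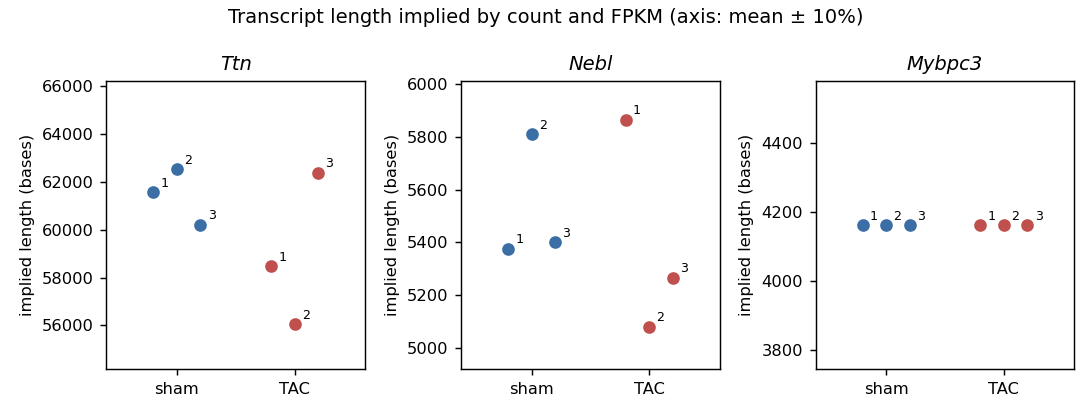
Transcript length in bases implied by the deposited count, FPKM and library total (vertical axis, 10% either side of the mean in each panel and not from 0) for Ttn, Nebl and Mybpc3 in each sham (blue) and TAC (red) library, numbered by replicate. The points of Mybpc3 lie at 4163 bases in all libraries, while those of Ttn and Nebl are spread, with TAC replicate 2 lowest in both.

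Mybpc3 was lowest in TAC replicate 3 and also below the sham libraries in TAC replicate 2. Mybpc3 (ENSMUSG00000002100, chromosome 2, 91118144 to 91136516, plus strand) had 2427, 2432 and 2553 CPM in the sham libraries, a coefficient of variation of 2.88%. TAC replicates 1, 2 and 3 had 2447, 2176 and 1315 CPM. Replicate 1 thus lay inside the sham range, replicate 2 below it and replicate 3 far below. The log2 fold change was -0.32 (SE 0.23, 95% interval -0.84 to 0.20, edgeR adjusted p = 0.400). Leaving out TAC replicate 3 gave -0.11 (adjusted p = 0.593). Leaving out TAC replicate 1 gave -0.51 (adjusted p = 0.143). The ratio of Mybpc3 to Ttn in FPKM was 29.8, 31.5 and 32.4 in sham and 29.4, 21.9 and 15.8 in TAC replicates 1, 2 and 3. Since the FPKM of Ttn rest on lengths that vary, the ratio of the counts was also taken: 2.02, 2.10 and 2.24 in sham, and 2.09, 1.63 and 1.06 in TAC replicates 1, 2 and 3. By counts TAC replicate 1 lay inside the sham range and the other two below it.

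The M-band genes were the 3 myomesins. Myom1 (ENSMUSG00000024049, chromosome 17, 71002633 to 71126856, plus strand), the myomesin of all striated muscle, had 1026, 1118 and 1081 CPM in sham replicates 1, 2 and 3. In TAC replicates 1, 2 and 3 it had 965, 1198 and 739.9 CPM, so that the TAC values lay on both sides of the sham range. Its log2 fold change was -0.15 (SE 0.19, 95% interval -0.58 to 0.28, edgeR adjusted p = 0.634). It was -0.36 without TAC replicate 2 (adjusted p = 0.292) and -0.0048 when TAC replicate 3 was omitted. The annotated span of Myom1 overlaps Myl12a on the other strand and the non-coding gene Gm26561 on the same strand. Nebl overlaps Gm13324 and Mir6419, and Myom2 overlaps Gm15678, all on the other strand. Reads from any bases that exons of such genes share cannot be told apart.

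Myom2, which encodes M-protein and is expressed in adult heart and fast muscle fibres, was the member most variable in sham beside Tcap. Myom2 (ENSMUSG00000031461, chromosome 8, 15057653 to 15133541, plus strand) had 619, 892 and 974 CPM in sham replicates 1, 2 and 3 and 743, 897 and 588 CPM in TAC replicates 1, 2 and 3. The lowest libraries were TAC replicate 3 and sham replicate 1, and the groups overlapped. Its log2 fold change was -0.16 (SE 0.22, 95% interval -0.66 to 0.35, edgeR adjusted p = 0.677), and -0.35 to -0.03 with 1 library left out.

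Myom3, the myomesin of slow and intermediate skeletal fibres, was barely detected in these hearts. Myom3 (ENSMUSG00000037139, chromosome 4, 135759715 to 135815564, plus strand) had 54, 85 and 75 estimated counts in sham and 99, 82 and 46 in TAC. The TAC values lay on both sides of the sham values. Its log2 fold change was 0.03 (SE 0.30, 95% interval -0.66 to 0.72, edgeR adjusted p = 0.963), and at this depth the interval covers changes in either direction. Of the FPKM sum of the 3 myomesins, Myom1 made up 55.5% ± 5.02 in sham and 55.1% ± 0.728 in TAC (SD, n = 3 each). Myom2 made up 44.3% ± 5.03 and 44.7% ± 0.741, and Myom3 0.153% ± 0.00766 and 0.172% ± 0.0436. The shares differed between the groups by less than the spread among the sham libraries, except that of Myom3, where TAC replicate 1 at 0.221% was the highest.

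Among the Z-disc genes, Ldb3 stood level except in 1 library. Ldb3 (ENSMUSG00000021798, chromosome 14, 34526603 to 34588682, minus strand) had 883, 965 and 963 CPM in sham and 967, 970.2 and 736 CPM in TAC replicates 1, 2 and 3. Only TAC replicate 3 lay clearly outside the sham range, below it. The log2 fold change was -0.07 (SE 0.16, 95% interval -0.43 to 0.29, edgeR adjusted p = 0.797), and it was 0.03 without TAC replicate 3 (adjusted p = 0.887).

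Tcap had the widest spread of the members in TAC. Tcap (ENSMUSG00000007877, chromosome 11, 98383811 to 98384953, plus strand) had 1001, 709.7 and 674 CPM in sham replicates 1, 2 and 3. TAC replicate 1 had 1113 CPM, above all sham libraries, whereas TAC replicates 2 and 3 had 470.6 and 331 CPM, below all of them. The log2 fold change was -0.32 (SE 0.41, 95% interval -1.26 to 0.63, edgeR adjusted p = 0.651). Without TAC replicate 1 it was -0.998 (SE 0.24) at an adjusted p of 0.0287, which passed. With TAC replicate 1 kept and TAC replicate 3 left out it was -0.02 (adjusted p = 0.976). Leaving out TAC replicate 2 gave -0.16 (adjusted p = 0.861). Across the alternatives the adjusted p of Tcap ranged from 0.0287 to 0.976. In FPKM, Tcap per Ttn was 54.0, 40.3 and 37.6 in sham and 58.7, 20.8 and 17.5 in TAC replicates 1, 2 and 3.

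Myot had the largest difference of the 9 genes. Myot (ENSMUSG00000024471, chromosome 18, 44334074 to 44355724, plus strand) had 15.0, 17.7 and 19.8 CPM in sham replicates 1, 2 and 3 and 33.02, 97.5 and 48.1 CPM in TAC replicates 1, 2 and 3. Every TAC library was above every sham library, and TAC replicate 2 was the highest. The sham mean was 17.5 ± 2.40 CPM and the TAC mean 59.5 ± 33.7 CPM (SD, n = 3), 3.41-fold apart. The log2 fold change was 1.77 (SE 0.36, 95% interval 0.94 to 2.60, unadjusted p = 0.00115), with an edgeR adjusted p = 0.0559 that missed the threshold. The adjusted p was 2.96e-05 with DESeq2's Wald test and 0.00787 without TAC replicate 1 (log2 fold change 2.05). Omitting TAC replicate 2, the highest library, gave a log2 fold change of 1.18 (adjusted p = 0.0914), and omitting a sham library gave adjusted p of 0.168 to 0.245. Over all alternatives the adjusted p ranged from 2.96e-05 to 0.245. Myot made up 1.73%, 1.88% and 2.14% of the FPKM of its Z-disc neighbour Ldb3 in sham, and 3.37%, 10.5% and 6.66% in TAC replicates 1, 2 and 3.

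Because members such as Myot, Myom1, Myom2 and Myom3 are also genes of skeletal muscle, 12 skeletal muscle markers were examined beside the members. The fast myosin genes were at or near 0: Myh4 had 0 CPM in every library, Myh1 at most 0.213 and Myh2 at most 0.122 CPM. Tnnt3, a fast troponin T gene with too few counts to be tested, had 0.154, 0.184 and 0.277 CPM in sham and 0.285, 1.52 and 1.06 CPM in TAC replicates 1, 2 and 3. Its groups did not overlap, but only by 7 estimated counts in TAC replicate 1 against 6 in sham replicate 3. As for Myot, its highest library was TAC replicate 2. Among the tested genes of the list, 0 had non-overlapping CPM with TAC higher and 3 with TAC lower (Tnni2, Atp2a1 and Ckm). Over all tested genes the shares were 18.4% with TAC higher and 13.1% with TAC lower. Tnnt3 was named after its values were seen, and the list did not move alike. Tnni2 and Mylpf, also low in counts, had their lowest values in TAC replicate 2, at 0.304 and 0.217 CPM. The part of skeletal muscle RNA in the values of Myot and the other members was not tested. The list, 6 of whose 12 genes had enough counts to be tested, summed to 1691 to 1800.1 CPM in sham and 1495, 1095 and 776 CPM in TAC replicates 1, 2 and 3. Most of that sum was Ckm, the creatine kinase of heart and skeletal muscle, whose log2 fold change was -0.64 (edgeR: SE 0.23, adjusted p = 0.136). Mybpc2, of fast muscle, averaged 16.3 ± 3.08 CPM in sham and in TAC 16.4 ± 2.73 CPM (SD, n = 3). Of the list Atp2a1, the calcium pump of fast muscle, which was named after its values were seen, was the only called gene, and it fell by 1.80 log2 units (edgeR: SE 0.31, adjusted p = 0.0379). Atp2a1 was low in counts, with 37, 69 and 48 estimated counts in sham and 16, 17 and 12 in TAC replicates 1, 2 and 3. It missed the threshold when any 1 sham library (adjusted p 0.133 to 0.215), TAC replicate 2 (0.0986) or TAC replicate 3 (0.069) was left out.

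**Figure D3:**
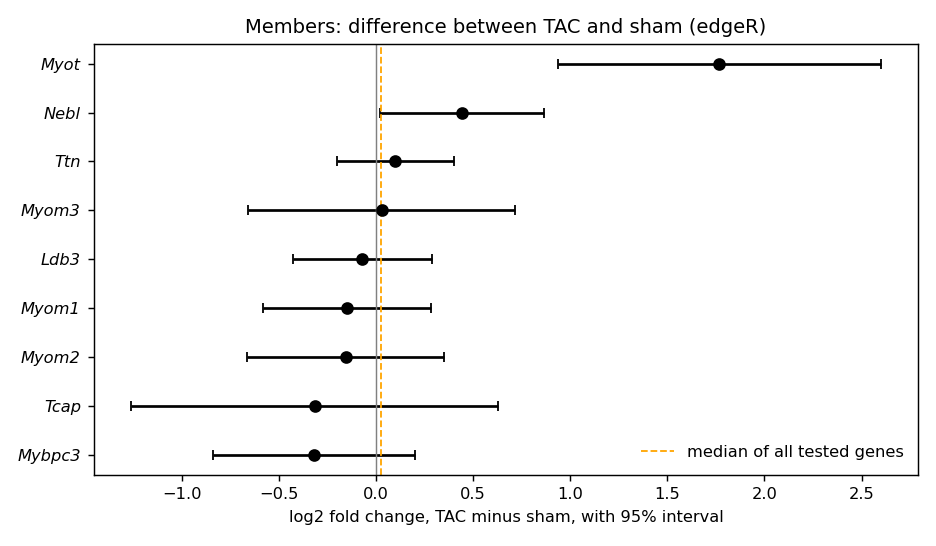
Log2 fold change of each of the 9 genes, TAC minus sham (horizontal axis), with its approximate 95% interval (bars), ordered by size. The dashed line is the median of all tested genes, 0.03. The intervals of Myot (0.94 to 2.60) and Nebl (0.02 to 0.86) lie above 0, and the other 7 cross 0.

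The TAC libraries differed among themselves more than the sham libraries in most of these genes. The SD of log2 CPM was larger in TAC than in sham for 8 of the 9 members, all but Myom2, and for 76.9% of all tested genes. The median SD of the members was 0.16 in sham and 0.35 in TAC, beside 0.13 and 0.26 over all tested genes. Within sham, Ttn, Mybpc3, Myom1 and Ldb3 varied by 2.81%, 2.88%, 4.32% and 5.01% (coefficient of variation of CPM), and Tcap and Myom2 by 22.6% and 22.4%. In TAC the coefficient of variation was 6.64% for Ttn, 29.9% for Mybpc3, 65.4% for Tcap and 56.6% for Myot.

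Across the 6 libraries 7 of the 9 members could be set in 2 patterns, given here as a description since libraries of both groups share these points. Mybpc3, Ldb3 and Myom1, whose upstream sequences are printed above, correlated in log2 CPM at r = 0.91 (Mybpc3 with Ldb3), 0.90 (Myom1 with Ldb3) and 0.82 (Myom1 with Mybpc3), all 3 with their lowest value in TAC replicate 3. The low-count Myom3 was also lowest there and correlated with Ldb3 at 0.95. Myom2 and Tcap, also lowest there, are not placed. Myom2 correlated with Ldb3 at 0.81, with Myom1 at 0.78, with Myom3 at 0.70 and with Mybpc3 at 0.61. Myom3 itself correlated with Myom1 at 0.75, so the line between Myom3 and Myom2 is not sharp. Tcap correlated with Mybpc3 at 0.81, with Myom1 at 0.39 and with Myom2 at 0.085. Ttn, Nebl and Myot formed the other pattern, with r = 0.85 for Ttn with Nebl, 0.85 for Ttn with Myot and 0.79 for Nebl with Myot. All 3 were highest in TAC replicate 2, which does not set them apart. Myom1 and Ldb3 of the first pattern also had their highest values there (1198 and 970.2 CPM). Between the patterns, Ttn correlated with Myom1 at 0.02 and with Mybpc3 at -0.46.

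**Figure D4:**
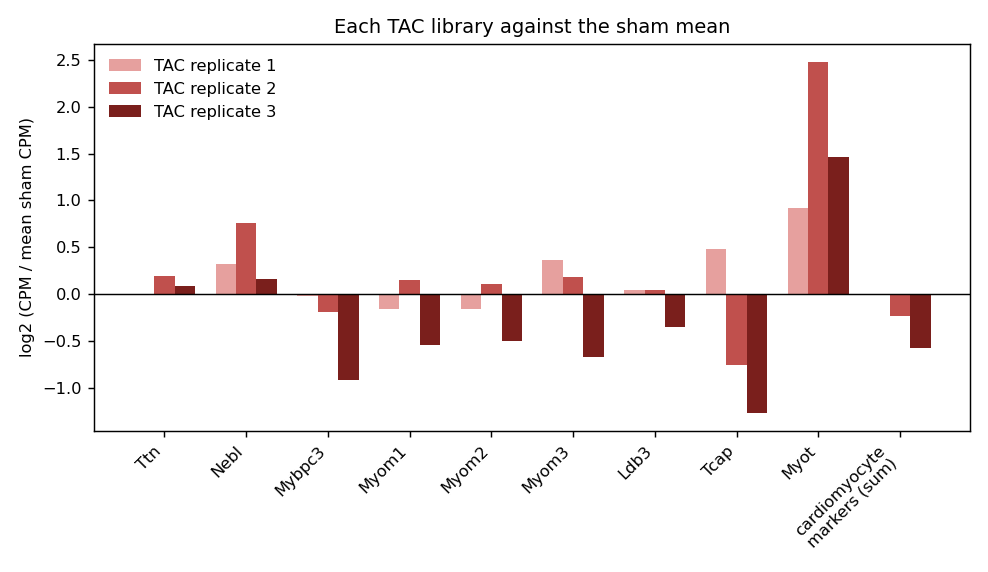
Log2 ratio of each TAC library to the mean of the 3 sham libraries, in CPM (vertical axis), for the 9 members and, at the right, for the summed CPM of 10 cardiomyocyte markers. Bars are single libraries and carry no error. TAC replicate 3 is below 0 in Tcap (-1.27), Mybpc3 (-0.91), Myom3 (-0.67), Myom1 (-0.54), Myom2 (-0.49) and Ldb3 (-0.35), and all 3 bars of Myot are above 0.

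Genes with library patterns most like those of Myot and Nebl, the 2 members with the smallest p, were sought among the 8541 tested genes that averaged 10 CPM or more. For Myot these were Fndc3a (r = 0.995), Irak3, a regulator of Toll-like receptor signalling (r = 0.993), and the prion protein gene Prnp (r = 0.992). For Nebl these were Cacna2d1, a calcium channel subunit (r = 0.998), Ttc14 (r = 0.995) and Htatsf1 (r = 0.993). The r are over 6 libraries and are the highest of many, so they describe these libraries only. The closest gene to Myot in pattern, Fndc3a, stood at a log2 fold change of 0.72 (edgeR: SE 0.19, adjusted p = 0.0798), smaller than that of Myot.

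The partner genes of these proteins were read from the same test in 4 lists, of which 53 of 58 genes were tested, and 3 passed, all higher in TAC (1.12% of all tested genes were called higher). Of 15 tested M-band and A-band partners 0 were called, 3 had a positive and 12 a negative log2 fold change, and the median was -0.22. At an unadjusted p under 0.05, 1 of these was higher and 6 were lower, beside 16.3% and 9.26% of all tested genes. Its most abundant genes were Ckm, given above, and the titin-binding LIM protein gene Fhl2 (log2 fold change -0.22, SE 0.26, adjusted p = 0.623). Of 21 tested Z-disc partners 1 was called higher, 0 lower and 20 did not pass, with a median of 0.47 and 17 positive values. By unadjusted p under 0.05, 10 of the 21 were higher and 1 was lower. The called gene was Hspb7, a small heat shock protein of cardiac muscle. It had 1764, 1748 and 1732 CPM in sham and 2815, 3322 and 4218 CPM in TAC, and rose by 0.98 log2 units (edgeR: SE 0.18, adjusted p = 0.0414).

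Of 12 tested genes of the titin spring and titin splicing, 2 were called higher, 0 lower and 10 did not pass, with a median of 0.53. By unadjusted p under 0.05, 6 of the 12 were higher and 1 was lower, beside 16.3% and 9.26% of all tested genes. Ankrd1, an ankyrin repeat protein that binds the titin spring and responds to stretch, rose by 2.85 log2 units (edgeR: SE 0.37, adjusted p = 0.0172). Its sham mean was 227 ± 22.8 CPM and its TAC mean 1643 ± 900.4 CPM (SD, n = 3). Hsp90aa1, a chaperone used in myosin folding, rose by 1.86 log2 units (edgeR: SE 0.34, adjusted p = 0.0419), with means of 32.1 ± 5.24 and 116.3 ± 54.3 CPM (SD, n = 3). Of 5 tested genes that set thin filament length, 0 were called, 0 were higher and 2 lower at an unadjusted p under 0.05, and the median was -0.06. Of the most abundant genes of this list, the actin filament capper Tmod1 stood at -0.47 (edgeR: SE 0.18, adjusted p = 0.148) and Lmod2 at -0.06 (edgeR: SE 0.20, adjusted p = 0.860). The count of called partners was 0 when any 1 sham library or TAC replicate 2 was left out. Omitting TAC replicate 3 gave 2, and omitting TAC replicate 1 gave 23. Hspb7, Ankrd1 and Hsp90aa1 thus each missed the threshold without any 1 sham library or TAC replicate 2. Hspb7 also missed it with the replicate block (edgeR adjusted p = 0.0922) and on log2 of FPKM plus 1 or plus 0.1 (limma adjusted p = 0.0575 in either). Hsp90aa1 also missed it without TAC replicate 3 (edgeR adjusted p = 0.0593), with the replicate block (0.0922) and with limma-voom (adjusted p = 0.0562). On log2 of FPKM plus 1 and plus 0.1 its limma adjusted p was 0.0749 and 0.0695. In DESeq2's Wald test the count of called partners was 17, and with limma-voom 2.

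**Figure D5:**
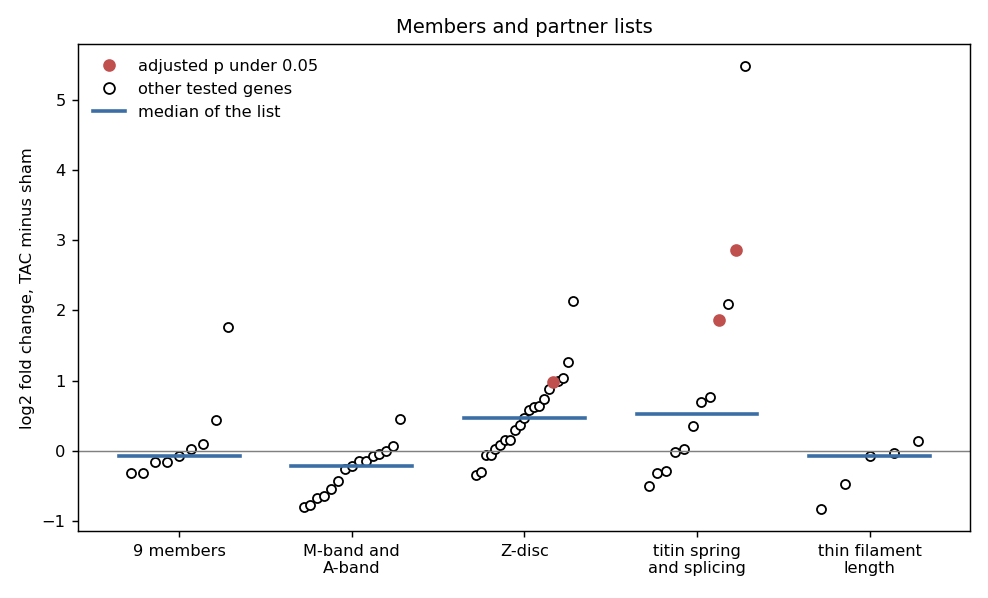
Log2 fold change, TAC minus sham (vertical axis), of the 9 members and of the tested genes of 4 partner lists. Each point is a gene, filled where the edgeR adjusted p is under 0.05, and the blue line is the median of the list. The medians are -0.07, -0.22, 0.47, 0.53 and -0.06 from left to right, and the filled points are Hspb7, Hsp90aa1 and Ankrd1.

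Markers of other cell types also differed between libraries, and their part in the values above was not tested. The 7 leukocyte markers all had positive log2 fold changes, and 4 were called higher: Ptprc (1.99), Cd68 (1.56) and the neutrophil genes S100a8 (4.97) and S100a9 (4.77), named after their values were seen. All 4 calls were lost with limma-voom (adjusted p 0.0524 to 0.105) and when any 1 sham library was left out (0.0995 to 0.226). TAC replicate 2 or 3 left out also ended all 4. The list summed to 351 to 401 CPM in sham and to 432, 752 and 758 CPM in TAC replicates 1, 2 and 3. Its most abundant genes, Lyz2 and Adgre1 of macrophages, stood at log2 fold changes of 0.53 (edgeR: SE 0.19, adjusted p = 0.135) and 0.68 (edgeR: SE 0.17, adjusted p = 0.0733). The 5 atrial markers, with 0 called, summed to 2168 to 3494 CPM in sham and 2664 to 3414 CPM in TAC, and 7 smooth muscle and pericyte markers, with 0 called, to 1056 to 1294 and 863 to 1039 CPM. The 7 fibroblast markers, with 0 called, summed to 2118 to 2556 CPM in sham and 1815 to 2233 CPM in TAC. The 7 endothelial markers, of which 1 was called lower, summed to 1871 to 2045 CPM and 1684 to 1903 CPM. At an unadjusted p under 0.05, where 16.3% of all tested genes were higher and 9.26% lower, 7 of 7 leukocyte markers were higher and 0 lower. The same counts were 0 higher and 2 lower for cardiomyocytes, 1 and 2 for endothelium, 0 and 1 for atria, 0 and 5 for smooth muscle and pericytes, 0 and 1 for fibroblasts and 0 and 2 for skeletal muscle. The 2 most abundant genes of the other lists were not called either: Nppa (log2 fold change 0.38) and Myl4 (-0.49) of atria, Rgs5 (0.14) and Acta2 (-0.60) of smooth muscle and pericytes, Dcn (-0.19) and Col3a1 (-0.22) of fibroblasts, and Fabp4 (0.09) and Pecam1 (-0.20) of endothelium. The endothelial gene called lower was Tie1 (-0.63, edgeR adjusted p = 0.0414), named after its values were seen. That call was lost when any 1 sham library (adjusted p 0.151 to 0.225), TAC replicate 2 (0.107) or TAC replicate 3 (0.051) was left out.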

How the data were processed

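Poly(A)-selected heart RNA was sequenced by Illumina from libraries made with the NEBNext Ultra RNA kit, per the labels' protocols, in 3 sham and 3 TAC libraries grouped by sample title. The deposited table gives an estimated count and an FPKM value per gene and library, per the file headers. The tools listed in the submitters' processing notes are StringTie 1.3.1, HISAT2, DESeq2 and Bowtie2 2.2.8, with the build GRCm38. How each column was made: not given in the sources used here. Symbols came from GENCODE M21 (GRCm38), which matched 22255 of 22298 identifiers.

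Counts were rounded and tested, TAC against sham, by glmQLFit and glmQLFTest of edgeR 4.0.16 (R 4.3.3), two-sided and without covariates, after filterByExpr at a minimum of 10 counts and TMM scaling, adjusted over all 13708 tested genes at a threshold of 0.05. CPM use TMM-scaled library sizes, and log2 CPM a prior count of 2. The SE is the log2 fold change divided by the square root of F, and intervals derive from it, so both are approximate. On simulated counts the procedure recovered 95.9% of genes changed by 2 log2 units and 63% of those changed by 1. That simulation gave both groups the same spread, unlike the real libraries, so it does not give the recovery reached here. Libraries of a group differed beyond sampling noise (chi-square at least 11.7 times its degrees of freedom), so each was kept. The members and all lists were chosen with earlier results of these data known, so their directions are not independent evidence. Named genes were the members, called partners (up to 6 per list) or else the 2 most abundant, the 2 most abundant markers of each list, and the 3 genes closest in pattern to each of 2 members. Alternatives were DESeq2 1.42.0 size factors and its Wald test, upper-quartile factors, limma-voom (limma 3.58.1), other count filters, log2 FPKM with limma-trend, a replicate block, no mitochondrial genes, and each library left out.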

Additional observations from a re-analysis of the deposited data

How the results depend on the processing

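Of 141 combinations of a member and an alternative, 132 kept their direction and their side of the threshold, 3 newly passed (Myot with DESeq2's Wald test and without TAC replicate 1, Tcap without TAC replicate 1) and 6 changed sign. Of the 6, 5 concerned Myom3, whose log2 fold change was -0.033 with limma-voom and -0.020 with the replicate block, and ran from -0.19 to 0.27 with 1 library left out (below 0 when sham replicate 1, TAC replicate 1 or TAC replicate 2 was omitted). That of Ldb3 ran from -0.17 to 0.034 with 1 library left out, and was above 0 when TAC replicate 3 was omitted. The cause was not tested. Myom3 had too few counts for the minimum count of 100 and too low an FPKM for the FPKM fits, which therefore give no value for it.

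All genes past the threshold numbered 227 by edgeR, 1657 with DESeq2's Wald test, 125 and 120 on log2 of FPKM plus 1 and plus 0.1, and 12 to 3229 with 1 library left out. Members past it numbered 0, with 1 in the Wald test and 0 to 2 with 1 library left out. Partner genes past it numbered 3, with 17 in the Wald test, 1 in either FPKM fit and 0 to 23 with 1 library left out. With the replicate block 74 of all genes, 0 members and 1 partner passed. The calls of Atp2a1 (adjusted p = 0.0922), Tie1 (0.105) and the 4 leukocyte markers (0.0668 to 0.0922) were also lost with the replicate block. Same-numbered sham and TAC libraries correlated at -0.11 to 0.01 in their deviations from the group means. Of 3 sham libraries 0 correlated best with their own number. With 3 libraries per group this check cannot decide whether the replicate numbers pair the samples.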
